A study of Mus musculus with 43 samples.

Results

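The genes encoded by mouse mitochondrial DNA were followed in bulk RNA sequencing of mouse colon organoids and colon fibroblasts, to see how their RNA differed between normal and Apc-deleted epithelium and after drug treatment. They were taken as every gene whose symbol starts with mt-, which gave 37 of the 52636 genes listed, namely 13 mRNAs, 2 rRNAs and 22 tRNAs. All of them lie on chromosome M of GRCm38. Organoid libraries came from 6 lines, each derived from an individual mouse of 2 months carrying a tamoxifen-inducible Cre under the Villin promoter, and all these mice had received tamoxifen. The colonoid lines M41, M40 and M1 were Apc wild-type, and the tumoroid lines F11, M3 and M14 carried the floxed Apc allele, which tamoxifen deletes in intestinal epithelium. Each organoid line was cultured for 6 days with vehicle (Ve, DMSO), 4 µM regorafenib (R4), 8 µM regorafenib (R8) or 1 µM 5-fluorouracil (FU). Fibroblast lines M3, M3(2), M1(2) and M11, from wild-type C57BL/6 colon, were cultured for 7 days with Ve, R4, 1 µM autogramin-2 (A1) or both compounds (R4A1), and all but M11 also with 10 µM regorafenib (R10). For FU, 3 tumoroid libraries carry titles that read colonoid, so genotype label and library name decided their group. Regorafenib is a multi-kinase inhibitor, 5-fluorouracil a pyrimidine analog used in colorectal cancer, and autogramin-2 an autophagy inhibitor that targets GramD1A.

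Mitochondrial DNA encodes core subunits of the respiratory chain and of ATP synthase, together with the rRNAs and tRNAs needed to translate them, whereas all other mitochondrial proteins are encoded in the nucleus. Both strands are transcribed as long precursors, from which the tRNAs are cut out so that the mRNAs and rRNAs between them are released. In the colon, epithelial cells draw much of their energy from mitochondrial oxidation of short-chain fatty acids.

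The values are CP20M, read counts scaled to 20000000 counted reads per library, so that 20 CP20M equal 1 CPM. Libraries held 4371831 to 22367362 counted reads in 23 of the 24 organoid libraries and 7949971 to 12825922 in the 19 fibroblast libraries. The remaining organoid library, colonoid M41 with R4, held 512600 reads, of which 988 were mitochondrial, so that 1 read there equals 39.0 CP20M. Among its tRNAs, mt-Tw and mt-Ta read as 0 and mt-Tl2 as 430. This library stood apart in other ways too. Its Gm26917 and Gm42418, transcripts with sequence resembling ribosomal RNA, reached 2150570 and 685330 CP20M, while mt-Co1 took 0.913% of its mitochondrial reads, against 10.3 to 23.2% in the other organoid libraries, and mt-Nd5 took 17.0%, against 0.929 to 4.18%. Line M41 also stood apart with Ve and FU. Its AY036118, a further rRNA-like transcript, held 113054 and 132959 CP20M there and 279595 with R4, against 126 to 8608 in the other 21 organoid libraries, and its Gm42418 held 196002 and 195099 with Ve and FU, against 34482 to 102491. M41 with Ve had the lowest share of mRNAs among mitochondrial reads of all organoid libraries (15.0%) and the highest of rRNAs (81.9%), and results are therefore also given without this line. The 8 epithelial markers (Epcam, Cdh1, Krt8, Krt18, Krt20, Vil1, Cdx2 and Lgr5) were above 0 in all 24 organoid libraries, with Krt8 the most abundant, and summed to 33 to 316 CP20M in fibroblasts, where Krt8 was at 0 in 18 of 19 libraries. The 8 fibroblast markers, led by Col1a1, were all above 0 in every fibroblast library.

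A limited set of sequences shows which of these genes share sequence with other annotated genes. A stretch of chromosome 1 (chr1:24611535-24616197, minus strand) carries 7 annotated pseudogenes that copy mitochondrial bases 6381 to 11042, and over the 4149 bases compared they differed from the mitochondrial genes at 7. The copies of mt-Co2 (Gm28661), mt-Atp6 (Gm10925), mt-Co3 (Gm28437) and mt-Nd4l (Gm10222), and that of the first 876 bases of mt-Nd4 (Gm28439), were identical to the mitochondrial gene over all bases compared. Gm28438 differed from mt-Nd3 by T3C, counted from the first base of mt-Nd3. The first 60 bases of this pair are shown with the differing base in capitals, mt-Nd3 at chrM:9459-9518 on the plus strand and Gm28438 at chr1:24613060-24613119 on the minus strand.
mt-Nd3: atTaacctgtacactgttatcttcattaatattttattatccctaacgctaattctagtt
Gm28438: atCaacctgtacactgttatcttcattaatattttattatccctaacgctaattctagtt

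mt-Nd6 is the only mitochondrial mRNA on the minus strand, and its end overlaps that of mt-Nd5 by 14 bases. The last 60 bases of both genes are shown, mt-Nd5 at chrM:13506-13565 on the plus strand and mt-Nd6 at chrM:13552-13611 on the minus strand, each read along its own strand with the shared bases in capitals.
mt-Nd5: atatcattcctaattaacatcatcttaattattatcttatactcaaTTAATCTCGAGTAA
mt-Nd6: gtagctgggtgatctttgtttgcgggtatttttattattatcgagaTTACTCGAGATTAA

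The tRNA genes are 59 to 75 bases long, shorter than the 100-base reads, so a read of full length that is counted on one also covers bases beside it. The tryptophan and alanine tRNAs, to which the organoid results return, are shown whole. They are neighbours on opposite strands, mt-Tw at chrM:4950-5016 on the plus strand and mt-Ta at chrM:5018-5086 on the minus strand.
mt-Tw: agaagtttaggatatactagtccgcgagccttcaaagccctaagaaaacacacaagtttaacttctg
mt-Ta: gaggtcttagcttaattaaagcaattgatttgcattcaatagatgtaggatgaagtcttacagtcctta

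All sequences shown are GENCODE M21 transcripts on GRCm38. The paper's methods name a directional library kit for organoids, while the sample labels name a different kit. Whether reads were counted by strand, and how reads matching more than 1 place were treated, is not given in the sources used here. Reads of mt-Nd6, or of a minus-strand tRNA, therefore cannot be told apart from reads of the RNA from the opposite strand.

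The rRNAs and the mRNAs with a level above mt-Nd3 kept the same order of median levels in both cultures. mt-Rnr1 and mt-Rnr2, which encode the small and large rRNA of the mitochondrial ribosome, took a median of 68.2% of mitochondrial reads in organoids (59.9 to 81.9%) and 71.6% in fibroblasts (62.7 to 81.5%). The 13 mRNAs took 30.2% and 26.9%, and the 22 tRNAs 1.48% and 1.55%. Per kilobase of gene, tRNAs left aside, the order was mt-Rnr2, mt-Rnr1, mt-Co1, mt-Nd1, mt-Cytb, mt-Nd5, mt-Nd2, mt-Nd6 and mt-Nd4 in both tables. Among mRNAs, mt-Co1, the catalytic core of complex IV, was the highest, with a median level of 18087 CP20M per kilobase in organoids and 19422 in fibroblasts. mt-Nd1, a membrane subunit of complex I, followed at 5365 and 6489, and mt-Cytb, the cytochrome b of complex III, at 4836 and 6087. These neighbours were not cleanly separated, since mt-Nd1 exceeded mt-Cytb in 18 of 24 organoid and 16 of 19 fibroblast libraries. Lower in the order, the complex I subunits mt-Nd5 and mt-Nd2 reached 2242 and 905 CP20M per kilobase in organoids and 4233 and 1851 in fibroblasts. mt-Nd6 and mt-Nd4, also of complex I, stood at 646 and 601 in organoids and changed places between libraries, with mt-Nd6 higher in 10 of 24 organoid and 16 of 19 fibroblast libraries.

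**Figure D1:**
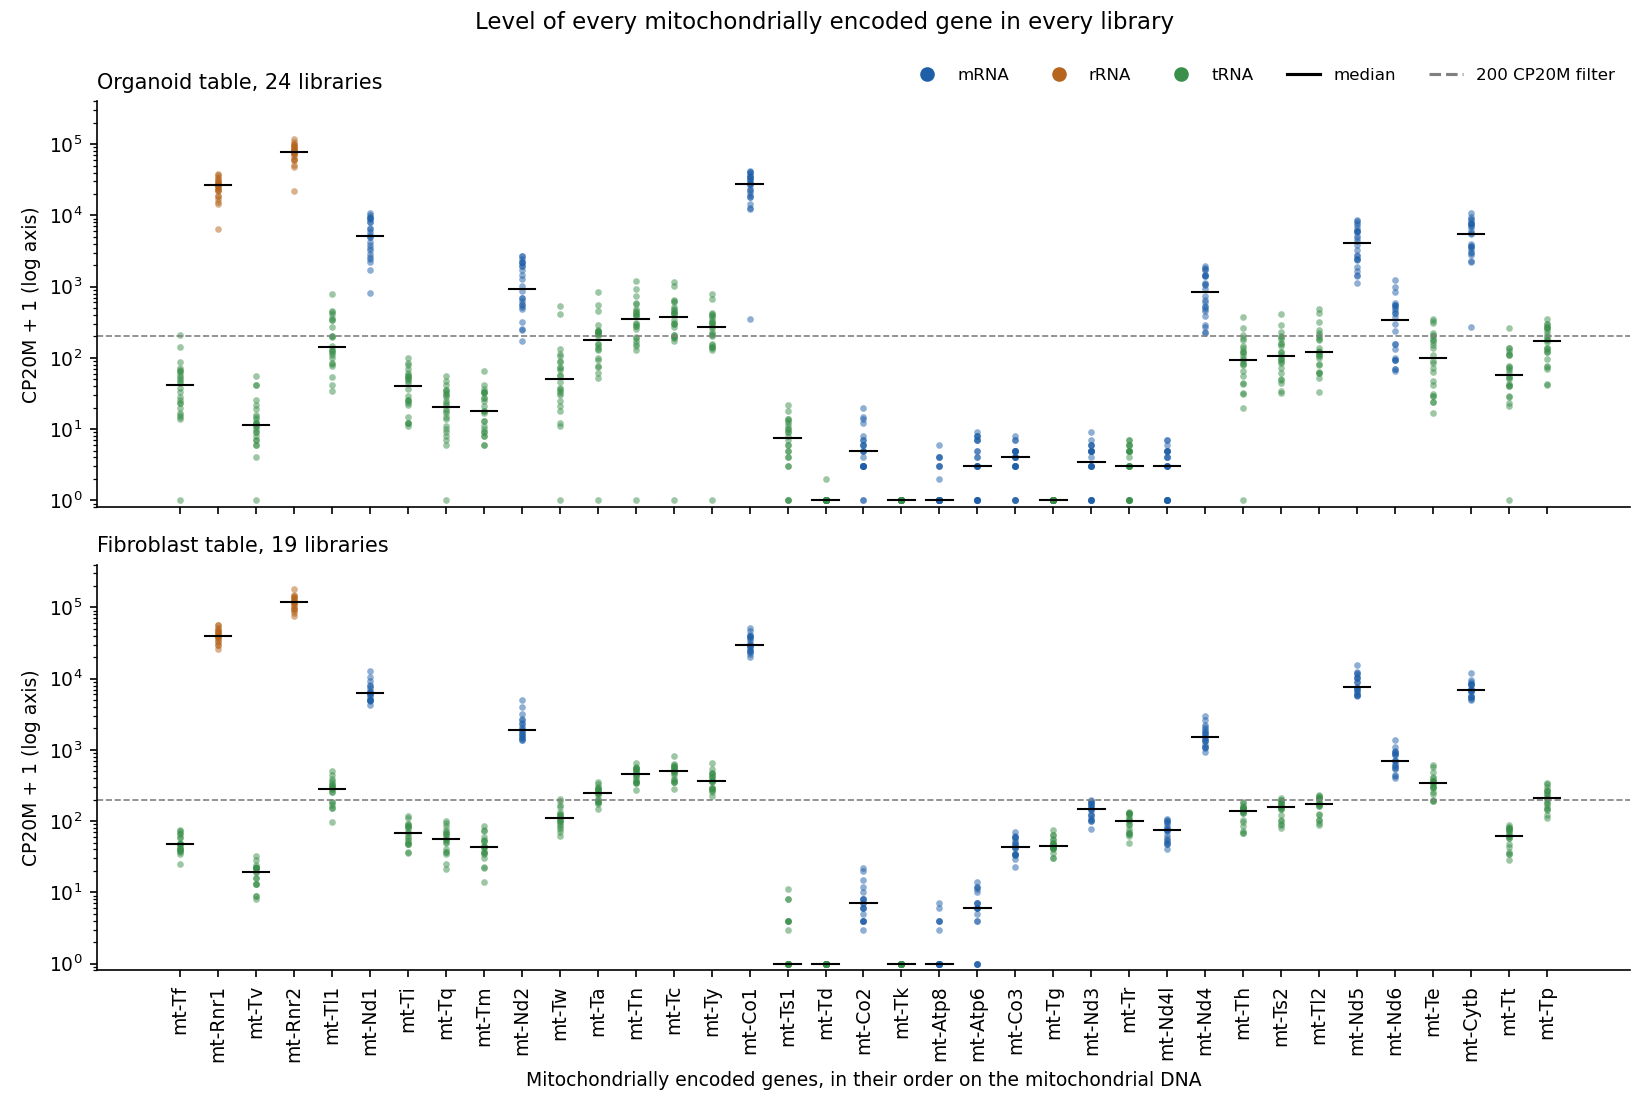
Level of all 37 mitochondrially encoded genes as CP20M + 1 on a log axis, in their order along the mitochondrial DNA, with 1 point per library, a black line at the median and a dashed line at the 200 CP20M filter. In the 24 organoid libraries the genes from mt-Td to mt-Nd4l all lie under 20 CP20M, whereas in the 19 fibroblast libraries mt-Co3 to mt-Nd4l lie between 22 and 199.

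A block of low genes, near 0 in organoids, ran without a gap over 10 genes from mt-Td to mt-Nd4l (chrM:6942-10173). It holds 6 mRNAs, mt-Co2 and mt-Co3 of complex IV, mt-Atp8 and mt-Atp6 of ATP synthase, and mt-Nd3 and mt-Nd4l of complex I, together with the tRNAs mt-Td, mt-Tk, mt-Tg and mt-Tr. Each of the 10 was under 20 CP20M in all 24 organoid libraries, and their sum lay between 0 and 43 CP20M, at most 0.0308% of a library's mitochondrial reads. In fibroblasts the sum was 225 to 586, which is 0.149 to 0.264%, and mt-Nd3, mt-Tr and mt-Nd4l made up most of it. On the side of mt-Nd4l the level rose at once, since mt-Nd4, which overlaps mt-Nd4l by 7 bases, held 225 to 1946 CP20M in organoids and 947 to 2969 in fibroblasts. On the other side lies mt-Ts1, a minus-strand tRNA with at most 21 CP20M in organoids and 10 in fibroblasts, and beyond it mt-Co1.

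The block lies within the stretch copied on chromosome 1, which reaches beyond it into mt-Co1 and mt-Nd4. Of all 100-base windows in the annotated sequence, 99.5% in mt-Co2, 99.5% in mt-Atp6, 99.9% in mt-Co3, 97.6% in mt-Nd3 and 98.5% in mt-Nd4l occur letter for letter in a nuclear transcript. The share was 60.8% in mt-Nd4, 30.8% in mt-Co1 and 3.19% in mt-Nd2. In mt-Rnr1, mt-Rnr2, mt-Nd1, mt-Nd5, mt-Nd6 and mt-Cytb it was 0. mt-Atp8 had no such window within an annotated transcript, although 21.1% of its bases lie in the 43-base overlap with mt-Atp6, which is copied. Only annotated nuclear transcripts were searched, so that copied bases between them were not seen. What part the copies have in these counts was not tested, and the values of the 6 mRNAs are given here as counts only.

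For 3 pairs, the counts of gene and copy stood in opposite order in the organoid and the fibroblast table, in all or nearly all libraries. For mt-Nd3, the organoid libraries held 0 to 8 CP20M (median 2.50), whereas its copy Gm28438 held 30 to 315 (median 89.5) and was the higher of the pair in 24 of 24 libraries. In fibroblasts mt-Nd3 held 77 to 199 CP20M (median 145) and Gm28438 0 to 20, with mt-Nd3 higher in 19 of 19. The gene and its copy thus changed places between the tables in all 43 libraries. mt-Co3 and Gm28437 showed the same exchange, at medians of 3.00 and 27.5 in organoids and 42.0 and 11.0 in fibroblasts, as did mt-Nd4l and Gm10222, at 2.00 and 47.5 in organoids and 73.0 and 3.00 in fibroblasts. In each of these pairs the copy was higher in 23 organoid libraries and equal in 1, and the mitochondrial gene was higher in all 19 fibroblast libraries. The pairs of mt-Co2 with Gm28661 and of mt-Atp6 with Gm10925 stayed at or below 27 CP20M in both tables. mt-Co2 was higher than Gm28661 in 12 organoid libraries and lower in 7, and in fibroblasts higher in 3 and lower in 11. mt-Atp6 was higher than Gm10925 in 5 organoid libraries and lower in 12, and in fibroblasts higher in 4 and lower in 13. The tables were scaled separately and the cultures differ in cell type, days in culture and possibly library kit, so no test was made across them, and whether the RNA itself or the placing of reads differs was not tested.

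**Figure D2:**
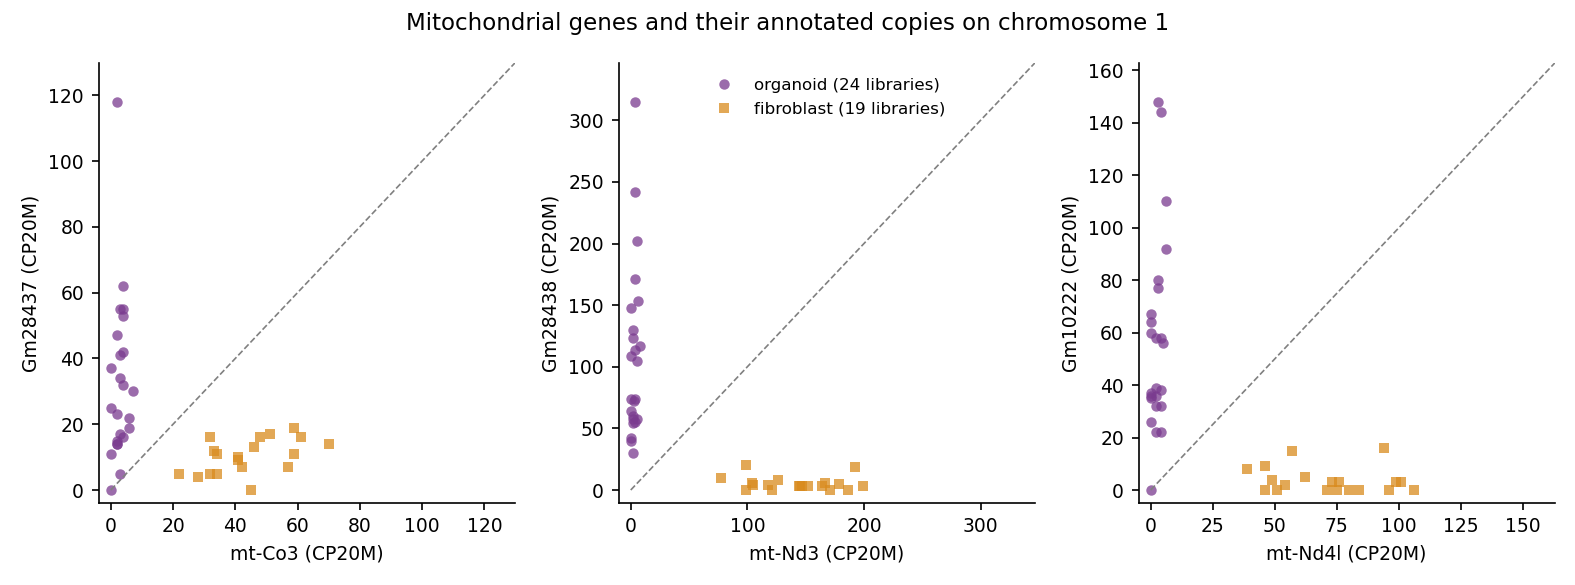
CP20M of mt-Co3, mt-Nd3 and mt-Nd4l (horizontal axes) against their annotated copies on chromosome 1 (vertical axes), 1 point per library, with a dashed line where both are equal. All 24 organoid libraries lie on or above the line and all 19 fibroblast libraries below it.

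The filter of at least 200 CP20M in at least 2 libraries left 20 mitochondrial genes for testing in organoids (7 mRNAs, both rRNAs and 11 tRNAs) and 17 in fibroblasts (7 mRNAs, both rRNAs and 8 tRNAs). The other 17 and 20 were not tested, and among the mRNAs these were the 6 of the low block in both tables. Values were compared by limma on log2(CP20M + 20) over all genes tested, and a gene was called at a Benjamini-Hochberg adjusted p under 0.05. Changes are given on this log2 scale, which understates those of low genes, with their standard error.

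The first comparison asked how tumoroids and colonoids differed under control conditions. Mitochondrial genes took 0.604, 0.836 and 0.629% of counted reads in the colonoid lines M41, M40 and M1, and 1.20, 1.01 and 1.07% in the tumoroid lines F11, M3 and M14. The tumoroid lines were all above the colonoid lines, with means of 1.09 ± 0.0945% and 0.690 ± 0.127% (SD, n = 3 each). In bulk RNA, fewer cells of a type and less RNA per cell cannot be told apart.

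**Figure D3:**
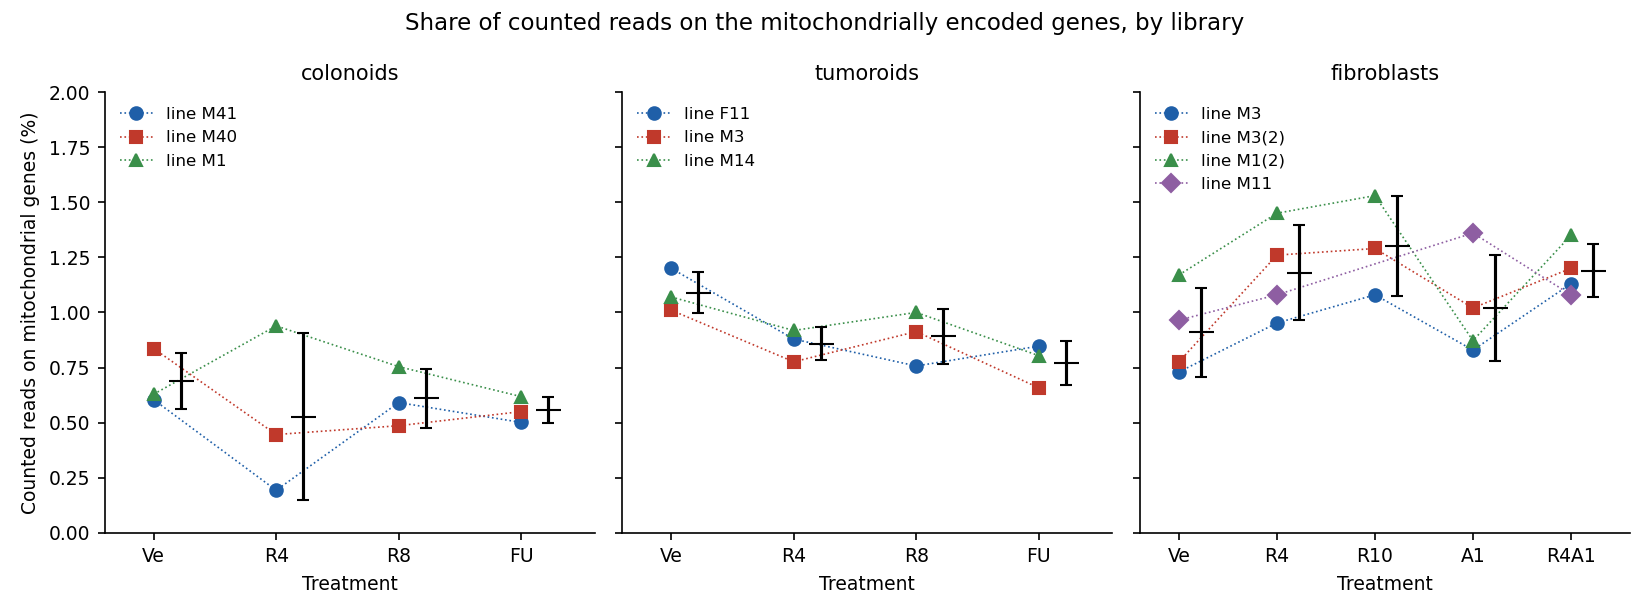
Percent of counted reads on the 37 mitochondrially encoded genes in each library, by treatment, for colonoids, tumoroids and fibroblasts, with symbols and dotted lines for the lines and a black mark with bars for mean and SD. Tumoroids under Ve lie between 1.01 and 1.20% and all 3 lines fall under R4, R8 and FU, whereas all 4 fibroblast lines are higher under R4 and R4A1 than under Ve.

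By gene, 2 of the 20 tested were called, both higher in tumoroids, where 1.04% of all 11562 genes were called higher. mt-Nd6 held 92, 295 and 156 CP20M in the colonoid lines and 851, 1252 and 993 in the tumoroid lines. The groups did not overlap, and mt-Nd6 rose by 2.50 ± 0.47 (limma, adjusted p = 0.00885). mt-Te, the glutamate tRNA, which lies next to mt-Nd6 on the minus strand, held 28, 107 and 72 CP20M in colonoids and 304, 348 and 331 in tumoroids. Again without overlap, it rose by 2.07 ± 0.38 (limma, adjusted p = 0.00841), although it passed the filter on tumoroid libraries alone. All 20 differences were positive, with a median of 1.13 against 0.06 over all genes tested, and those of the mRNAs had a median of 1.70. Of these genes, mt-Tw, mt-Th and mt-Tp, like mt-Te, passed the filter on tumoroid libraries alone, which favours a positive difference. The complex I subunit mt-Nd2, at 249, 1271 and 575 CP20M in colonoids and 2430, 2666 and 2236 in tumoroids, differed by 2.06 ± 0.58 without being called (limma, adjusted p = 0.0662). mt-Nd5, at 1123, 5073 and 2451 against 8745, 8272 and 7727, differed by 1.76 ± 0.49 (limma, adjusted p = 0.0634). Among the 7 tested mRNAs and both rRNAs, the rRNAs had the smallest differences, mt-Rnr1 by 0.58 ± 0.37 and mt-Rnr2 by 0.45 ± 0.34 (limma, adjusted p = 0.466 and 0.572). Without the shallowest library, which is not in either group but enters the shared spread, 8 of the 20 were called, the 7 tested mRNAs and mt-Te. The share of all genes called in that fit is not given here, so this rise in calls is not read as particular to mitochondrial genes. Without tumoroid line M3 or M14, none was, and none was when only the groups compared were fitted. Without line M41 mt-Nd6 was again called.

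Among nuclear genes of mitochondria, 0 of the 76 OXPHOS subunits tested and 0 of the 12 genes of mtDNA transcription and replication were called in this comparison. Elac2, which cuts the tail ends of mitochondrial tRNAs from the precursor, rose by 0.63 ± 0.14 (limma, adjusted p = 0.0253), as 1 of 19 genes of mitochondrial RNA processing and decay. The mitochondrial chaperone Hspa9 rose by 0.77 ± 0.19 (limma, adjusted p = 0.0391), 1 of 11 chaperones and proteases, and the ribosomal protein Mrpl38 by 0.60 ± 0.13 (limma, adjusted p = 0.0198), 1 of 77. The sum of the epithelial markers moved with the genotype, at 138458 ± 15839 CP20M in colonoids and 84712 ± 10218 in tumoroids (SD, n = 3 each). So did the rRNA-like Gm26917, at 264527, 391208 and 384895 with Ve in M41, M40 and M1 and 682075, 507823 and 619263 in F11, M3 and M14. AY036118, Gm42418 and Lars2, and the nuclear-retained Malat1 and Neat1, overlapped between genotypes. What part these shifts have in the differences was not tested.

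The next comparison asked what regorafenib did in organoids, over both doses and both genotypes. In tumoroids the mitochondrial share of reads was below that of the same line under Ve in 3 of 3 lines at R4 (0.879, 0.776 and 0.918% for F11, M3 and M14) and at R8 (0.757, 0.913 and 1.00%). In colonoids it was below Ve in 2 of 3 lines at each dose, at 0.193, 0.446 and 0.939% for M41, M40 and M1 with R4 and 0.591, 0.486 and 0.754% with R8. The value of 0.193% is that of the shallowest library (95% Wilson interval 0.181 to 0.205%, for counting error only), and without it the colonoid mean with R4 was 0.692 ± 0.349% (SD, n = 2), against 0.526 ± 0.379% with it (n = 3). Line M1 was higher than its own Ve at both doses. Macrophage markers moved with regorafenib, their sum being 427, 515 and 492 CP20M with Ve and 3245, 1446 and 596 with R8 in M41, M40 and M1, and 519, 525 and 575 against 854, 1465 and 1738 in F11, M3 and M14. With R4 it was 627, 606 and 550 in colonoids and 573, 909 and 701 in tumoroids, above Ve in all 6 lines. Csf1r was the most abundant of the 7 with Ve and Cd68 in 4 of the 6 lines with R8, where 3 to 5 markers were at 0. The defining markers Ptprc and Lyz2 were at most 7 and 4 CP20M in all 24 organoid libraries.

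Of the 20 genes tested, 6 fell and none rose under regorafenib, where 17.4% of all genes fell. They were 5 tRNAs, mt-Tw, mt-Ta, mt-Tn, mt-Tc and mt-Te, and the mRNA mt-Nd6. mt-Tw held 131, 70 and 106 CP20M in the colonoid lines M41, M40 and M1 under Ve and 540, 88 and 412 in the tumoroid lines F11, M3 and M14. It held 0, 17 and 45 in colonoids and 114, 54 and 57 in tumoroids with R4, and 20, 29 and 10 in colonoids and 67, 73 and 31 in tumoroids with R8. Each line was thus below its own Ve at both doses, although the groups overlapped across genotypes, and mt-Tw fell by 1.76 ± 0.34 (limma, adjusted p = 0.000789). It passed the filter on 2 tumoroid Ve libraries alone, which favours a fall. mt-Ta held 453, 218 and 237 CP20M under Ve in colonoids and 843, 212 and 551 in tumoroids, against 0, 61 and 285 with R4 in colonoids and 243, 202 and 155 in tumoroids. With R8 it held 75, 74 and 51 in colonoids and 177 ± 53.0 in tumoroids (SD, n = 3). Values under regorafenib were mostly lower and overlapped with Ve, with a fall of 1.57 ± 0.40 (limma, adjusted p = 0.00653).

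The neighbours of mt-Ta on the minus strand followed. mt-Tn, the asparagine tRNA, fell by 1.42 ± 0.47 (limma, adjusted p = 0.0286) and mt-Tc, the cysteine tRNA, by 1.28 ± 0.48 (limma, adjusted p = 0.0498), while mt-Ty, the tyrosine tRNA of the same cluster, differed by -1.13 ± 0.43 without being called (limma, adjusted p = 0.0535). In the shallowest library mt-Tw and the 4 tRNAs of this cluster were at 0, where a single read would be 39.0 CP20M. Without it the changes were smaller, with -1.65 for mt-Tw, -1.32 for mt-Ta, -1.09 for mt-Tn and -0.94 for mt-Tc, and 7 genes were called, these 4 with mt-Ty, mt-Nd6 and mt-Te. mt-Nd6 fell by 0.81 ± 0.29 (limma, adjusted p = 0.0390) and mt-Te by 0.76 ± 0.24 (limma, adjusted p = 0.0207). mt-Nd6 held in tumoroids 851, 1252 and 993 CP20M under Ve against 588, 506 and 559 with R4 and 349 ± 170 with R8 (SD, n = 3). In colonoids it held 92, 295 and 156 under Ve, 430, 68 and 236 with R4 and 91, 64 and 69 with R8, and the 430 is that of the shallowest library. By strand, 5 of the 7 tested minus-strand genes fell (median -1.13) and 1 of the 13 on the plus strand (median -0.40). These 5 are the neighbours mt-Ta, mt-Tn and mt-Tc and the neighbours mt-Nd6 and mt-Te, so they are not separate cases. The difference between strands was not tested.

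The other 6 tested mRNAs and both rRNAs were not called, with differences between -0.24 ± 0.30 for mt-Nd5 and -0.48 ± 0.41 for mt-Cytb (limma, adjusted p = 0.587 and 0.403). mt-Rnr1 and mt-Rnr2 differed by -0.43 ± 0.22 and -0.44 ± 0.21 (limma, adjusted p = 0.162 and 0.126). All 20 differences were negative, with a median of -0.45 against -0.11 over all genes. Leaving out each line in turn gave 2 called genes without M40 or F11, 3 without tumoroid M3, 1 without M14, 6 without the whole line M41 and 8 without M1. mt-Ta was called in all of these fits but that without M14, and for mt-Tw, which entered through tumoroid Ve libraries, no stability is read from them.

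Within colonoids, mt-Tw and mt-Ta changed by -1.67 ± 0.48 and -1.90 ± 0.57 (limma, adjusted p = 0.0222 and 0.0271), 2 genes of 20 where 10.9% of all genes fell. Both calls were lost when only the groups compared were fitted. Within tumoroids 1 of 20 was called, mt-Tw, which fell by 1.85 ± 0.48 (limma, adjusted p = 0.0206), where 4.26% of all genes fell. As mt-Tw passed the filter on 2 tumoroid Ve libraries, it entered this test through the arm where it is high. With a pseudocount of 1 no gene was called in tumoroids. With line as a block 2 were called in tumoroids, mt-Tw and mt-Te, and without the shallowest library 4, mt-Tw, mt-Ta, mt-Nd6 and mt-Te. Without M41 or M40 no gene was called in colonoids and without M1 6 were, and in tumoroids none was called without F11 or M14, 4 without M41 and 2 without M40. The response itself was not found to differ between genotypes, with 0 of 20 mitochondrial genes called and 0% of all genes, 0 mitochondrial genes at an unadjusted p under 0.05 and 0 by edgeR or DESeq2. R8 against R4 gave 0 of 20, where 1.05% of all genes were called in either direction, with 2 mitochondrial genes at an unadjusted p under 0.05 1 called by DESeq2 (mt-Nd6) and 0 by edgeR.

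**Figure D4:**
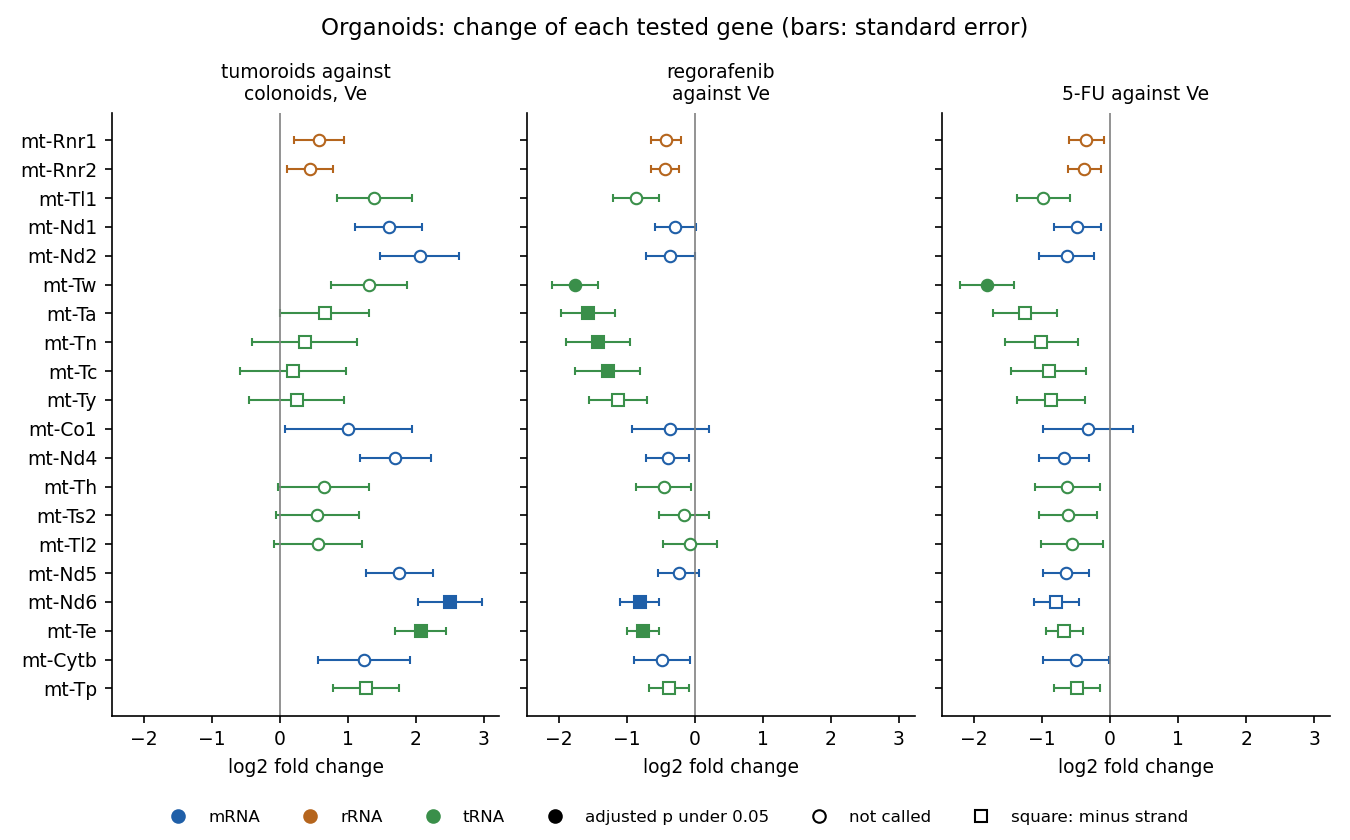
Change of each tested mitochondrial gene on the log2(CP20M + 20) scale with its standard error (limma), in genome order, for tumoroids against colonoids under Ve, regorafenib against Ve and 5-FU against Ve in all organoids. Filled symbols are called, squares lie on the minus strand, and under regorafenib and 5-FU mt-Tw and mt-Ta lie lowest, at -1.76 and -1.57 and at -1.81 and -1.25.

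Lists of nuclear genes of mitochondria were counted against all genes tested, of which 29.5% were called under regorafenib in either direction and 17.4% fell. The share that fell lay above that of all genes for mtDNA transcription and replication, ribosomal proteins, biogenesis regulators, mitophagy receptors and import. It lay below that of all genes for OXPHOS, RNA processing and nucleotide supply and close to it for chaperones and proteases. Apart from ribosomal proteins and OXPHOS, the lists hold only 7 to 19 tested genes, so that few genes decide their place. No list was tested as a whole. mtDNA transcription and replication had 4 lower and 0 higher of 12 tested, among them Tfb2m, a transcription factor of mitochondrial RNA polymerase (-0.54 ± 0.11, limma, adjusted p = 0.00138), and Polg, the mtDNA polymerase (-0.42 ± 0.11, limma, adjusted p = 0.0101). Mitochondrial ribosomal proteins had 23 lower of 77, led by Mrpl43 (-0.74 ± 0.13, limma, adjusted p = 0.000411), with a list median of -0.36 against -0.11 over all genes. Biogenesis regulators had 3 lower of 8, Gabpa (-0.51 ± 0.08), Nrf1 (-0.59 ± 0.12) and Yy1 (-0.28 ± 0.08), which are transcription factors for nuclear genes of mitochondria (limma, adjusted p = 9.59e-05, 0.000843 and 0.0109). The 76 nuclear OXPHOS subunits had 7 lower and 0 higher, with a list median of -0.14, among them Uqcrfs1 of complex III (-0.41 ± 0.12, limma, adjusted p = 0.0149) and Cox5b of complex IV (-0.46 ± 0.14, limma, adjusted p = 0.0151). Genes of RNA processing had 2 lower and 1 higher of 19, the latter being Lrpprc, which binds and stabilises mitochondrial mRNAs (0.43 ± 0.11, limma, adjusted p = 0.00788). Its partner Slirp fell by 0.44 ± 0.15 (limma, adjusted p = 0.0292). Of the remaining lists, chaperones and proteases had 2 lower and 1 higher of 11, mitophagy receptors 3 lower of 10 with a list median of 0.06, higher than the -0.11 over all genes, import, porins and citrate synthase 3 lower of 13, and nucleotide supply 1 higher of 7 (Mpv17, 0.50 ± 0.12, limma, adjusted p = 0.00410).

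5-FU served as a second drug for comparison, and it shares its Ve libraries with the regorafenib comparison. The mitochondrial share of reads with FU was 0.501, 0.550 and 0.618% in colonoids M41, M40 and M1 and 0.847, 0.658 and 0.804% in tumoroids F11, M3 and M14, below the same line's Ve in all 6 lines. Of 20 genes 1 fell, where 1.23% of all genes fell. mt-Tw held 11, 35 and 24 CP20M in colonoids and 87, 33 and 37 in tumoroids, below its Ve value in all 6 lines, and fell by 1.81 ± 0.40 (limma, adjusted p = 0.0173). Here too it had passed the filter on 2 tumoroid Ve libraries alone, which favours a fall. The call was lost without M1 or M14, and also with a pseudocount of 1. mt-Ta differed by -1.25 ± 0.47 (limma, adjusted p = 0.172), and the median of all 20 was -0.64, against -0.01 over all genes. With line as a block and without the shallowest library together, a choice made after seeing the data, 6 fell, namely mt-Tl1, mt-Tw, mt-Ta, mt-Tn, mt-Tc and mt-Ty. The response to 5-FU gave 0 of 20 calls for a difference between genotypes, where 0% of all genes were called, and 0 at an unadjusted p under 0.05 and 0 by DESeq2 or edgeR. Of the nuclear lists only the chaperones and proteases had a call with 5-FU, the protease Lonp1 (-0.88 ± 0.19, limma, adjusted p = 0.0159).

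In fibroblasts the question was how regorafenib acts on stromal cells, alone and with autophagy inhibited. The mitochondrial share of reads under Ve was 0.730, 0.776, 1.17 and 0.965% in lines M3, M3(2), M1(2) and M11. With R4 it was 0.952, 1.26, 1.45 and 1.08%, higher than Ve in each of the 4 lines, and with R10 it was 1.08, 1.29 and 1.53% in M3, M3(2) and M1(2), higher in each of the 3. The group means were 0.910 ± 0.201% with Ve (n = 4), 1.18 ± 0.215% with R4 (n = 4) and 1.30 ± 0.226% with R10 (SD, n = 3), and the ranges overlapped.

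With R10, 14 of 17 mitochondrial genes rose and none fell, where 6.45% of all genes rose. All 7 tested mRNAs rose, and each of them was above 200 CP20M in all 19 libraries. mt-Co1 held 22160, 20225, 26412 and 24538 CP20M with Ve in M3, M3(2), M1(2) and M11, 30007, 37384, 27388 and 28854 with R4, and 40296, 46797 and 50989 with R10 in M3, M3(2) and M1(2). The R10 values lay above all Ve and R4 values, and mt-Co1 rose by 0.98 ± 0.16 over Ve (limma, adjusted p = 0.000955). mt-Nd2, the complex I subunit with the greatest change among the mRNAs, held 1483, 1644, 1860 and 1563 with Ve, 2326, 2638, 1610 and 1716 with R4 and 3167, 3959 and 4976 with R10. It rose by 1.27 ± 0.23 (limma, adjusted p = 0.00185), again with R10 above every Ve and R4 library.

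The remaining mRNAs kept to a narrow band. mt-Nd1 rose by 1.03 ± 0.19 and mt-Nd4 by 1.13 ± 0.21 (limma, adjusted p = 0.00208 and 0.00199). mt-Nd5 held 5625, 5870, 7046 and 6354 CP20M with Ve and 11515, 12307 and 15483 with R10, a rise of 1.06 ± 0.20 (limma, adjusted p = 0.00267). mt-Nd6, on the other strand, held 620, 406, 729 and 447 with Ve and 862, 1086 and 1376 with R10 and rose by 1.00 ± 0.27 (limma, adjusted p = 0.0224). mt-Cytb of complex III held 5252, 5073, 6614 and 5854 with Ve and 8450, 9718 and 11916 with R10 and rose by 0.81 ± 0.18 (limma, adjusted p = 0.00643).

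The rRNAs were not called. mt-Rnr2 held 75976, 83828, 135662 and 109291 CP20M with Ve and 96722, 119163 and 143001 with R10, overlapping ranges that differed by 0.26 ± 0.23 (limma, adjusted p = 0.526). mt-Rnr1 differed by 0.47 ± 0.21 (limma, adjusted p = 0.161) and was called with line as a block, which made 15 of 17. Accordingly the mRNAs alone took 0.221% of counted reads with Ve and 0.441% with R10. Whether mRNAs and rRNAs differ in their change was not tested. Of the 8 tested tRNAs 7 rose, by 0.76 ± 0.16 (mt-Tn) to 1.15 ± 0.31 (mt-Tl1), and mt-Te was not called, at 0.80 ± 0.31 (limma, adjusted p = 0.0986). mt-Ta, mt-Tl2 and mt-Tp passed the filter with no Ve library at 200 CP20M, which favours a rise. Leaving out each line in turn gave 6 to 14 calls, with 9 without M3, 6 without M3(2), 7 without M1(2) and 14 without M11. mt-Nd1, mt-Nd2, mt-Co1, mt-Nd4 and mt-Nd5 rose in all of these fits, and for mt-Ta, given its filter, nothing is read from them.

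**Figure D5:**
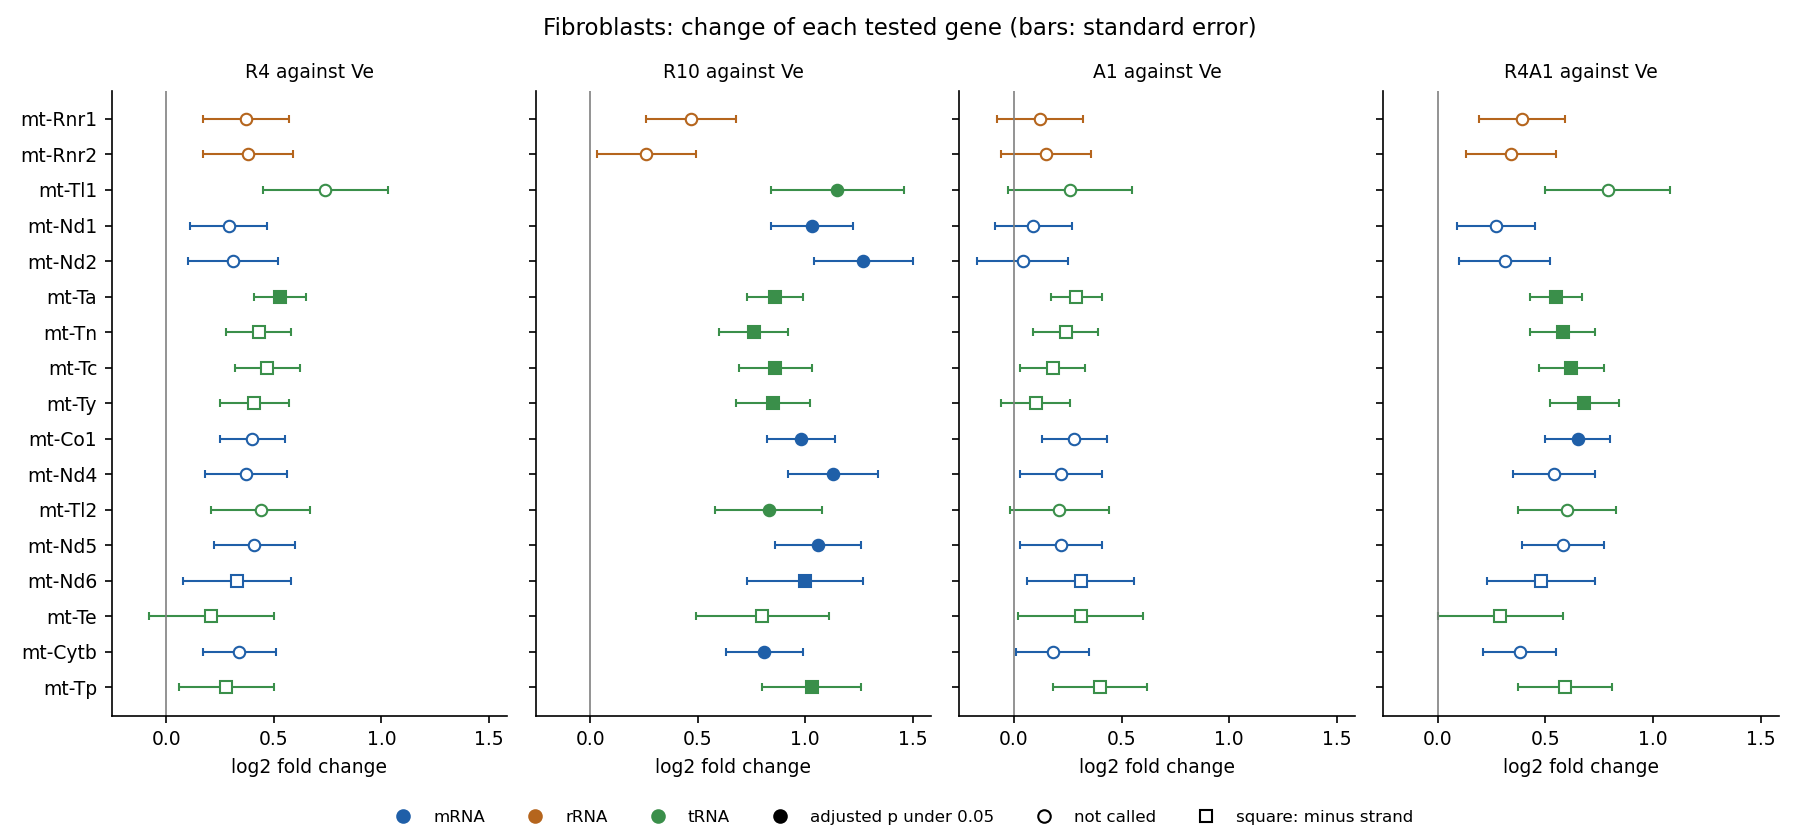
Change of each tested mitochondrial gene against Ve on the log2(CP20M + 20) scale with its standard error (limma), in genome order, for R4, R10, A1 and R4A1 in fibroblasts. With R10, 14 of 17 symbols are filled (called) and both rRNAs lie nearer 0 than every mRNA and tRNA.

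With R4, 1 of 17 rose, where 0.934% of all genes rose. mt-Ta held 182, 175, 149 and 183 CP20M with Ve and 235, 248, 282 and 264 with R4, without overlap, and rose by 0.53 ± 0.12 (limma, adjusted p = 0.0362). It passed the filter with no Ve library and with all 4 R4 libraries at 200 CP20M or more, which favours a rise. All 17 differences were positive, with a median of 0.38 against 0.00 over all genes. Of these genes, mt-Tl2 and mt-Tp also passed the filter with no Ve library at 200 CP20M, which favours a positive difference. With line as a block 6 rose, namely mt-Tl1, mt-Ta, mt-Tn, mt-Tc, mt-Ty and mt-Co1. Without M3, M3(2) or M1(2) no gene was called, and without M11 2 were. Fitting only the groups compared also gave no call. R10 against R4 gave 0 of 17, where 0.245% of all genes were called in either direction, with 11 mitochondrial genes at an unadjusted p under 0.05. In this comparison edgeR called 0, DESeq2 called 4 (mt-Nd1, mt-Nd2, mt-Co1 and mt-Nd4), and 8 were called with line as a block, these 4 with mt-Ta, mt-Ty, mt-Nd5 and mt-Tp, all higher with R10.

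Autogramin-2 alone gave 0 of 17 calls, where 0% of all genes were called, with 1 mitochondrial gene at an unadjusted p under 0.05 and 0 by edgeR or DESeq2. The share of reads with A1 was 0.829, 1.02, 0.872 and 1.36%, above Ve in 3 of 4 lines and below it in M1(2). With R4A1 it was 1.13, 1.20, 1.35 and 1.08%, above Ve in 4 of 4, and 5 of 17 genes rose, where 1.28% of all genes rose. These were mt-Co1 (0.65 ± 0.15) and the minus-strand tRNAs mt-Ta (0.55 ± 0.12), mt-Tn (0.58 ± 0.15), mt-Tc (0.62 ± 0.15) and mt-Ty (0.68 ± 0.16), with limma adjusted p between 0.0230 and 0.0394. For mt-Ta, all 4 R4A1 libraries and no Ve library had reached the filter, which favours a rise. mt-Co1 held 34495, 39078, 41644 and 31566 CP20M, all above its Ve values. With line as a block 11 rose, and without M3, M3(2) or M1(2) none was called. Autogramin-2 added to R4 gave 0 of 17, where 0.00906% of all genes were called, and 0 at an unadjusted p under 0.05 and 0 by edgeR or DESeq2. These comparisons share the Ve or the R4 libraries with those above.

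Nuclear genes of mitochondria were also counted with R10, where 6.45% of all genes rose and 7.99% fell, and no test compared them with the mitochondrial genes. Of 74 nuclear OXPHOS subunits tested 1 rose, the complex I subunit Ndufc2 (0.33 ± 0.10, limma, adjusted p = 0.0398), and none fell, with a list median of 0.02 against -0.04 over all genes. Their summed level was 99367 ± 7112 CP20M with Ve (n = 4) and 96771 ± 3691 with R10 (SD, n = 3). Of 10 genes of mtDNA transcription and replication 2 fell, Polrmt, the mitochondrial RNA polymerase (-0.31 ± 0.09, limma, adjusted p = 0.0234), and Twnk, the mtDNA helicase (-0.42 ± 0.10, limma, adjusted p = 0.0125). Pnpt1, a nuclease of mitochondrial RNA, fell by 0.47 ± 0.12 (limma, adjusted p = 0.0177), as 1 of 18 genes of RNA processing and decay. Among 6 biogenesis regulators Gabpa fell by 0.45 ± 0.07 and Esrra, a nuclear receptor that activates genes of oxidative metabolism, rose by 0.57 ± 0.10 (limma, adjusted p = 0.000782 and 0.00176). Of 76 mitochondrial ribosomal proteins 2 fell, Mrps6 by 1.39 ± 0.20 (limma, adjusted p = 0.000361) and Mrpl50 by 0.33 ± 0.11 (limma, adjusted p = 0.0443). Of 10 mitophagy receptors 2 fell, Sqstm1 by 0.69 ± 0.11 and Fundc1 by 0.46 ± 0.13 (limma, adjusted p = 0.000926 and 0.0234). No gene of nucleotide supply (7 tested), chaperones and proteases (11) or import, porins and citrate synthase (13) was called with R10. With R4, where 0.789% of all genes fell, Gabpa fell by 0.28 ± 0.07 and Sqstm1 by 0.48 ± 0.10 (limma, adjusted p = 0.0429 and 0.0266). With R4A1, where 1.61% fell, Gabpa fell by 0.33 ± 0.07 and Mrps6, as 1 of 76 ribosomal proteins, by 1.21 ± 0.19 (limma, adjusted p = 0.0152 and 0.00285).

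Markers of other cell types moved with the fibroblast treatments. The 3 smooth muscle markers, with Actg2 the most abundant and none at 0, summed to 16754, 15354, 12044 and 5667 CP20M with Ve in M3, M3(2), M1(2) and M11, to 29886, 20992, 22302 and 13516 with R4 and, without M11, to 27460, 22337 and 25328 with R10. Each line was higher than its Ve at both doses. The 7 macrophage markers, with Lyz2 the most abundant under Ve and R4, summed to 2425, 1066, 1706 and 5480 with Ve, to 1151, 641, 925 and 1967 with R4 and, without M11, to 619, 585 and 626 with R10, lower in each line. At R10 1 or 2 of them were at 0. With R4A1 the smooth muscle sum was 24337, 17667, 22254 and 9526, higher than Ve in each of the 4 lines, and the macrophage sum 679, 452, 522 and 714, lower in each. The 8 fibroblast markers summed to 150482, 141313 and 128577 with Ve in M3, M3(2) and M1(2) and to 136896, 129367 and 131359 with R10, lower in the first 2 of these lines and higher in M1(2). With R4A1 they summed to 146550, 110998 and 125747 in these lines and to 113138 in M11, against 185853 with Ve, lower in each line. With R4 they were lower than Ve in M3(2), M1(2) and M11 (126578, 117959 and 146446) and higher in M3 (186156). The 4 endothelial markers, with Cdh5 the most abundant and none at 0, summed to 877, 7281, 1525 and 2135 CP20M with Ve in M3, M3(2), M1(2) and M11 and to 1345, 20692, 5021 and 6439 with R4, higher in each of the 4 lines. With R4A1 they summed to 1591, 12722, 1533 and 1509, higher than Ve in M3, M3(2) and M1(2) and lower in M11. With R10 they summed to 1201, 4750 and 1392 in M3, M3(2) and M1(2), higher than Ve in M3 alone. The 3 glial markers summed to 911, 581 and 3926 with Ve in these 3 lines and to 1425, 850 and 4328 with R10, higher in each. With R4 they summed to 1223, 810 and 5480 there and to 11369 in M11, against 11069 with Ve, again higher in each line. The 3 erythroid markers were at 0 in all fibroblast libraries. Malat1 held 66820, 63940 and 44307 CP20M with Ve in M3, M3(2) and M1(2) and 87240, 123925 and 63912 with R10. Neat1 held 3008, 2714 and 1555 with Ve and 4403, 5597 and 1884 with R10, so both nuclear-retained RNAs were higher in each line. Lars2 was lower in each of them, and AY036118, Gm42418 and Gm26917 went both ways. What part these shifts have in the change of mitochondrial genes was not tested.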

How the data were processed

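Bulk RNA was sequenced as paired reads of 100 bases from 24 organoid and 19 fibroblast libraries. The authors trimmed reads with Trimmomatic 0.36, aligned them to GRCm38 with STAR 2.5.3a and counted genes with HTSeq 0.9.1, per the submitters' processing notes and methods. The deposited signal values (CP20M) are these counts scaled to 20000000 per library and rounded up. The study describes CP20M as also divided by transcript length, but the values of genes of all lengths fell on the same steps of 1 read, so they were treated as not corrected for length. The labels and the methods name different library kits, and removal of rRNA is not given in the sources used here.

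Reads per library were recovered from the steps of the values in 39 libraries, where for 98.76% or more of the values a whole read number, scaled and rounded up, gave the deposited value exactly. In 4 deep tumoroid libraries (F11 and M14 with FU, M3 with Ve and R4) 1 read is under 1 CP20M, so that whole numbers are no check, and the depth was estimated from values that stand for 2 read numbers. Genes at 200 CP20M (10 CPM) or more in at least 2 libraries were fitted in limma 3.58.1 (R 4.3.3) on log2(CP20M + 20), with 1 coefficient per group and a trended prior, once for organoids (11562 genes) and once for fibroblasts (11032 genes). Benjamini-Hochberg adjustment ran over all genes of a table. Scripts were tested on simulated data. Of 200 genes changed 2-fold there, the fit called 29.5% for tumoroids against colonoids, 38% for R10 and 55% for R4. It called 51.5% for regorafenib in tumoroids, 88.5% for 5-FU and 98.5% for regorafenib in all organoids. A gene that is not called can therefore still differ. Group tests used libraries as replicates, each from a different line within its group, so p-values measure the spread between lines within groups. The main fits had no term for line. Libraries of the same line in different groups, such as R4 and R8, were therefore treated as independent. Recovered reads were also tested with edgeR 4.0.16 and DESeq2 1.42.0. Same-line libraries, which come from the same mouse, deviated together (mean r 0.503 over 36 pairs in organoids and 0.719 over 36 in fibroblasts). The cause was not tested, and line as a block is given where it changes a count. Other alternatives were the pseudocount, the filter, the scaling, the threshold, the samples fitted and leaving out each line. No 2 libraries of a group agreed within sampling noise. Coordinates and sequences are those of GENCODE M21 on GRCm38. All members are accounted for. The mRNAs and rRNAs, and the tRNAs that passed the filter, are named by rule, with at most 4 called genes per nuclear list and comparison. The members and lists were chosen with earlier results of these data known.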

Additional observations from a re-analysis of the deposited data

Results flagged for a closer look

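In fibroblasts, 5 of 72 sets of 4 libraries held a library whose gap to the nearest other was wide against the range of its group, and chance gives such a gap in about 1 of 20 sets. mt-Nd1 in line M1(2) with Ve stood at 6147 CP20M, above 4920 to 5076 in the other lines. mt-Rnr2 in M1(2) with R4A1 stood at 138882 CP20M, above 119229 to 121147. In M11 mt-Tp was lowest with R4 (119 CP20M against 204 to 217) and with R4A1 (150 against 260 to 275), and mt-Tn was highest with A1 (582 against 341 to 360). The share of reads on mitochondrial genes moved in opposite directions with 4 µM regorafenib in tumoroids and fibroblasts. It was 0.786 of that under Ve as a mean over tumoroid lines, lower in 3 of 3, and 1.32 over fibroblast lines, higher in 4 of 4. Doses matched, but days in culture did not, and this difference was not tested.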

How the results depend on the processing

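No called gene changed direction under any alternative run. Counts from alternative runs are of mitochondrial genes, and the share of all genes called is given for the main fits only. With a filter of 1000 CP20M in place of 200, fewer mitochondrial genes were tested, and 0 were called for tumoroids against colonoids, for regorafenib in all organoids, colonoids and tumoroids, for 5-FU and for R4, with 7 for R10 and 1 for R4A1. At adjusted p under 0.01, 2 were called for regorafenib in all organoids and 0 in colonoids, in tumoroids, for 5-FU, R4 and R4A1. A pseudocount of 1 gave 1 for regorafenib in colonoids and 0 in tumoroids and for 5-FU, and a pseudocount of 100 gave 3 in tumoroids. edgeR gave 3 for regorafenib in tumoroids and 2 for 5-FU. DESeq2 gave 6 for tumoroids against colonoids, 5 for regorafenib in colonoids, 3 in tumoroids, 1 for R8 against R4, 2 for 5-FU and 4 for R10 against R4. Fitting only the groups compared gave 0 for tumoroids against colonoids, 0 for regorafenib in colonoids, 3 in tumoroids, 0 for R4 and 1 for R4A1. A replicate block for line gave 2 for regorafenib in tumoroids, 6 for R4, 11 for R4A1 and 8 for R10 against R4, and changed no other count by over 1.5 times. For tumoroids against colonoids a block could not be fitted, since each line has 1 genotype. Without the shallowest library, 8 were called for tumoroids against colonoids, 4 for regorafenib in tumoroids and 2 for 5-FU. With that library left out and the block together, a choice made after seeing the data, 5 were called in colonoids, 5 in tumoroids and 6 for 5-FU. Asking for a change of 1.5-fold gave 0 for R4 and 3 for R4A1, and no filter on low values gave 0 and 1. The cause of these changes was not tested.

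Leaving out each line in turn gave 0 to 3 calls for tumoroids against colonoids, 1 to 8 for regorafenib in all organoids, 0 to 6 in colonoids, 0 to 4 in tumoroids, 0 to 1 for 5-FU, 0 to 2 for R4, 6 to 14 for R10 and 0 to 7 for R4A1, and 0 for all other comparisons. TMM scaling moved the median over all genes for regorafenib in colonoids from -0.15 to -0.04. Counting the 13 mRNAs alone, the mean share of reads was 0.159% in colonoids with Ve, 0.134% with R4, 0.173% with R8 and 0.132% with FU. In tumoroids it was 0.350, 0.292, 0.317 and 0.229%, and in fibroblasts 0.221, 0.288, 0.441, 0.262 and 0.325% with Ve, R4, R10, A1 and R4A1. Depth limits the shallowest organoid library most, where a single read is 39.0 CP20M.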
